A study of Mus musculus with 3 samples.

Results

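Cytosolic ribosomal protein genes encode the proteins of the large and small ribosomal subunits. They were taken here as the genes whose symbol was Rpl or Rps followed by a digit, together with Rpsa, Rplp0, Rplp1 and Rplp2, and without symbols holding -ps and without the Rps6k kinases. The rule found 86 of the 32285 genes listed in the count tables. Of these, 77 encode core ribosomal proteins, 46 of the large and 31 of the small subunit. The other 9 are the paralogs Rpl22l1, Rps27l, Rpl36al, Rpl39l, Rpl10l, Rpl7l1 and Rpl3l, the retrocopy Rps27rt, and Rps19bp1, which encodes a binding partner of a ribosomal protein. The rule missed Fau, whose product is a ribosomal protein fused to a ubiquitin-like protein.

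Expression was read in single cells of E14tg2a, an established mouse embryonic stem cell line, of the genotype Fgf4 -/-. All cells received N2B27 medium, heparin at 1 µg/ml and Chiron, an inhibitor of the kinase GSK3, for 24 h. FGF4 protein was added at 0, 5 or 50 ng/ml, so the group without ligand shared genotype, medium, heparin and Chiron with both treated groups. Each dose was 1 droplet library that counts transcript 3′ ends by unique molecular identifiers (UMIs). With 1 library per dose, dose and library cannot be told apart, no test between doses was possible, and every interval given covers counting error only. In what follows, "higher" and "lower" describe these libraries, and a level is given in CPM, the UMIs of a gene per 1000000 UMIs of its library, with mitochondrially encoded (mt) genes left out of the total. Because 3′ tags are counted, levels were not divided by transcript length.

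The libraries held 373, 874 and 975 cells in order of dose, with 42726514, 75184072 and 81409975 UMIs and medians of 107873, 91763.5 and 87334 UMIs per cell. No cell barcode was shared between any pair of libraries. Transcripts of the mutated gene Fgf4 were counted at 54.7, 26.5 and 21.8 CPM, and since 3′ tags outside the altered sequence would still be counted, these levels check nothing. All 12 pluripotent stem cell markers reached 20 CPM in every library, whereas none of the 12 feeder fibroblast markers did (summed level 6.29 to 7.05, with 3 or 4 markers at 0) and none of the 8 primitive endoderm markers did (7.57 to 13.2). Cells with more than 10% mt UMIs, or with a depth more than 3-fold from the library median, numbered 14, 168 and 177. The main values keep them, and results that they bear on are given with and without them.

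A ribosome needs 1 copy of nearly every ribosomal protein, and animal cells produce the proteins in matched amounts from genes scattered over the genome. In these cells the 77 core genes lay on 19 chromosomes. Their mRNAs are known for a 5′ terminal oligopyrimidine (TOP) tract, a C at the cap followed by a run of C and U, through which the kinase mTOR controls their translation. Transcripts of elongation factors and of some other translation proteins carry the same tract. In the ribosome, Rplp0, Rplp1 and Rplp2 form the stalk that recruits translation factors, while Rpl5 and Rpl11 join the 5S ribosomal RNA and can bind the p53 regulator Mdm2.

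The sequence around the transcription start shows what the TOP tract looks like in the members that matter for the results below, and how far the annotation captures it. Windows of 30 bases, 15 before and 15 from the RefSeq start onwards (GRCm38.p6), were matched for 66 of the 86 members. A tract was scored, on the transcribed strand only, where the base at the start was C and the run of C and T from there was at least 5 bases long; capitals mark that run. Of the core genes with a window, 13 of 57 (22.8%) had such a run, as had 3 of 15 (20%) translation factors listed for TOP mRNAs, 0 of 47 ribosome assembly factors and 576 of 20201 other genes (2.85%). An annotated start a few bases from the start used by the cell hides a tract, so a window without a run says only that these letters do not begin there. Shown first is Rps18, a small-subunit gene among those that followed the rest of the set most closely over cells. Next are a gene whose level differed between doses (Rpl38), the gene of the protein phosphorylated downstream of mTOR (Rps6), and the longest runs (Rpl15, Rpl35). Then come the genes that stood apart in what follows: Rpl41, which followed the set least, Rps28, and the paralogs Rpl22l1 and Rpl36al.
Rps18, chr17:33955651-33955680, minus strand: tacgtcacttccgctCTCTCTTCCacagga
Rpl38, chr11:114668565-114668594, plus strand: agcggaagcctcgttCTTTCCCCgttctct
Rps6, chr4:86857353-86857382, minus strand: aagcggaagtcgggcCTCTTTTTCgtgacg
Rpl15, chr14:18270972-18271001, minus strand: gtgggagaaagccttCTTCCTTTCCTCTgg
Rpl35, chr2:39005117-39005146, minus strand: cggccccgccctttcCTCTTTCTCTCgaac
Rpl41, chr10:128549154-128549183, minus strand: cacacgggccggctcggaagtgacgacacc
Rps28, chr17:33824548-33824577, minus strand: ggtaccgcgtgcggtctcgcgagagcgaaa
Rpl22l1, chr3:28805493-28805522, plus strand: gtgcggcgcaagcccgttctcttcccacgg
Rpl36al, chr12:69184053-69184082, minus strand: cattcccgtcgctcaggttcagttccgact

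Ribosomal protein transcripts made up a large part of all non-mt UMIs at every dose, and their share was slightly lower with FGF4. The 86 genes held 28.6% of non-mt UMIs without ligand (95% exact binomial interval 28.54 to 28.57), 27.2% at 5 ng/ml (27.18 to 27.20) and 26.95% at 50 ng/ml (26.94 to 26.96). On the log2 scale the share differed by -0.071 at 5 ng/ml and by -0.083 at 50 ng/ml from the share without ligand, and by -0.013 between the ligand doses. With the cells of high mt share or outlying depth left out, these differences were -0.064, -0.078 and -0.014. As a mean over all cells, each weighted alike, they were -0.13, -0.12 and 0.012, so the sign of the last turned. Such a mean gives shallow cells outside the mt and depth limits as much weight as any other. Within the limits the mean share over cells was 28.7%, 27.4% and 27.1% in order of dose, without that turn. Values of single genes given below with every cell weighted alike include the outlying cells. As a share of all UMIs the values were 27%, 25.6% and 25.3%, with mt transcripts themselves at 5.45%, 5.84% and 6.23% of all UMIs.

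Both subunits contributed to the difference. Large-subunit genes held 15.7%, 14.98% and 14.9% of non-mt UMIs in order of dose, and small-subunit genes 12.5%, 11.8% and 11.7%. The small subunit accordingly made up 44.2%, 44.2% and 43.9% of core UMIs, so the balance between subunits differed by less than the share itself.

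The median cell followed the pooled libraries, but the cells with FGF4 were more dispersed. Over all cells the ribosomal protein share had a median of 28.7%, 27.2% and 26.96%, and the 5th to 95th percentiles ran from 24.4% to 33.2% without ligand, from 13.9% to 31.9% at 5 ng/ml and from 17.5% to 32.0% at 50 ng/ml. The lower ends differed between libraries more than the medians did. A share under 15% was found in 1 of 373 cells without ligand (0.268%, exact binomial interval 0.00679 to 1.48), in 50 of 874 at 5 ng/ml (5.72%, 4.28 to 7.47) and in 37 of 975 at 50 ng/ml (3.79%, 2.69 to 5.19). Of these cells, 1, 41 and 32 in order of dose had both over 10% mt UMIs and a depth more than 3-fold below the library median, with a median over the whole tail of 11756.5 UMIs and 30.8% mt UMIs at 5 ng/ml and 13029 UMIs and 36.2% at 50 ng/ml. Only 1 of them, at 5 ng/ml, lay within the mt and depth limits.

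**Figure D1:**
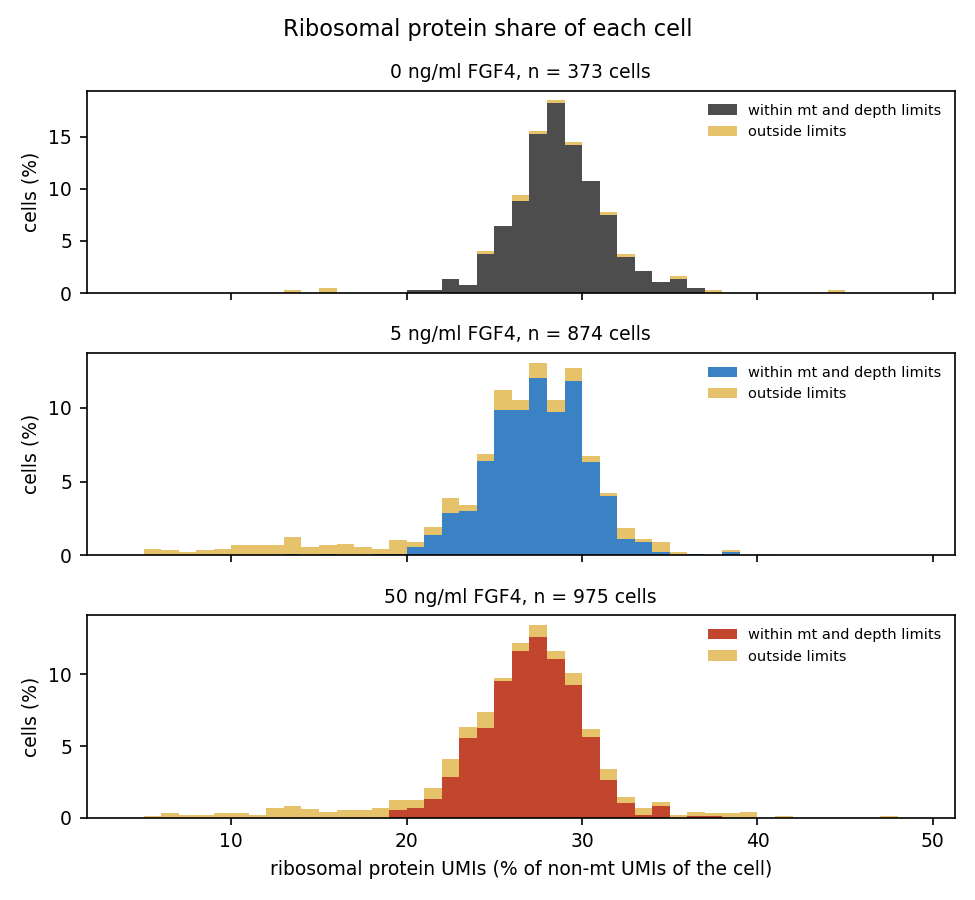
Distribution of the ribosomal protein share over cells in each library. The x axis is the percent of a cell's non-mt UMIs assigned to the 86 genes, the y axis is the percent of cells, and cells outside the mt and depth limits are in yellow; the tail under 15% holds 1, 50 and 37 cells in order of dose and consists almost wholly of yellow cells.

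Depth was set equal to compare the spread itself. Each cell was thinned to 20000 non-mt UMIs, which left 362, 724 and 829 cells and removed 11, 150 and 146 shallower cells. The coefficient of variation of the share was then 9.01%, 11.9% and 11.6% in order of dose, against 10.5%, 19.4% and 17.6% over all cells at full depth. Within the mt and depth limits it was 8.97%, 10.4% and 10.0% after thinning. Counting alone would give 1.11% to 1.16% at this depth. The share therefore varied between cells well beyond counting error in every library, and the gap between libraries narrowed when mt-rich and outlying cells were left out. The part of mt-rich barcodes in the wider spread with FGF4 was otherwise not tested.

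The cells outside the limits also differed in which ribosomal protein transcripts they held. At 5 ng/ml their pooled core share was 21.1% against 26.96% in the cells kept, and at 50 ng/ml it was 22.6% against 26.7%. Of the 77 core genes, 75 had a lower level in the left-out cells at 5 ng/ml and 76 at 50 ng/ml, with median log2 ratios of -0.38 and -0.25. Of all genes that reached 20 CPM in either set of cells, 31.8% and 33.5% were lower. Rpl18, a large-subunit gene, had the highest ratio at each dose (log2 0.11 and 0.098). Without ligand, where only 14 cells were left out, the median log2 ratio was -0.027 and 52 of 77 genes were lower, against 46.3% of all genes. These 14 cells had a median of 10837.5 UMIs and 459624 non-mt UMIs in all. The deepest cell of that library, with 354163 UMIs, was among them, so this pool does not describe shallow or mt-rich cells alone. At 5 and 50 ng/ml the deepest cells likewise lay outside the limits.

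Gene by gene, the members differed little between doses. A gene counted as tested where the larger of the compared levels was at least 20 CPM, which 85 of the 86 members did. The exception was Rpl3l, a paralog known from skeletal and heart muscle, with 39, 93 and 91 UMIs in order of dose. At 5 against 0 ng/ml, 1 member was at least 1.5-fold higher, Rps27rt, where 3.82% of all tested genes were, and 0 were at least 1.5-fold lower, where 3.96% of all tested genes were. For 50 against 0 ng/ml no member passed 1.5-fold either way, against 4.75% of all tested genes higher and 5.95% lower. Between 50 and 5 ng/ml none did either, with 0.229% of all tested genes higher and 0.353% lower. None of the 77 core genes passed 1.5-fold in any of these comparisons.

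Most core genes were nevertheless slightly lower with ligand. At 5 ng/ml 64 of the 77 had a level below that without ligand, and at 50 ng/ml 60 had, compared with 43.8% and 44.8% of all tested genes. The median log2 ratio of core genes was -0.071 and -0.063, against 0.034 and 0.034 over all genes tested. Over all members the median at 50 ng/ml was -0.054, and -0.026 or -0.024 after scaling by TMM or by median-of-ratios size factors. The same scalings raised the median over all genes tested by 0.027 and 0.029, so the members stayed about as far below it. Of the 77 counting intervals at 50 ng/ml, 55 lay below 1, 17 above it, and 5 held it. Of all 5899 genes tested, 2113 had an interval below 1, 2591 above it and 1195 held it. An interval that excluded 1 was therefore common at this depth. Between the ligand doses the core genes were split, with 38 of 77 below 1 (50.8% of all tested genes were) and a median log2 ratio of 0.0024. Over the 3 doses, 32 core genes were lower at each higher dose, 32 had their lowest level at 5 ng/ml, 7 were higher at each higher dose and 6 had their highest level at 5 ng/ml. These orders were not counted over all tested genes, so whether they differ from other genes is not known.

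Rps29, a zinc-finger protein gene of the small subunit (ENSMUSG00000034892, mm10 chr12:69157722-69159186, minus strand), had the most UMIs of all members summed over the libraries and the lowest ratio at 50 against 0 ng/ml. At 50 ng/ml itself Rpl27a had more. The level of Rps29 was 8072 CPM without ligand (exact Poisson interval 8044 to 8099), 6698 at 5 ng/ml (6679 to 6717) and 6130.5 at 50 ng/ml (6113 to 6148). It was 1.32-fold lower at 50 than at 0 ng/ml (1.31 to 1.32), and the levels descended with dose without overlap of their intervals. At a limit of 0.322 on the log2 scale, Rps29 and Rpl29 were the 2 members lower at 50 against 0 ng/ml, where 13.9% of all tested genes were, and 0 members were higher, where 14.6% were.

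The next core genes in order were likewise lower at each higher dose. Rps28, another small-subunit gene (ENSMUSG00000067288, chr17:33819027-33824562, minus strand), had 5473, 4963 and 4383 CPM with a ratio of 0.801 at 50 against 0 ng/ml (0.797 to 0.805). Its log2 ratio at 5 ng/ml was -0.14, and -0.23 with every cell weighted alike. Rpl38 (ENSMUSG00000057322, chr11:114668524-114672331, plus strand), whose loss in mice is known to alter the axial skeleton through selective translation, had 4263, 3725 and 3439 CPM with a ratio of 0.807 (0.802 to 0.811). Rpl31, at the exit of the peptide tunnel, had 2196, 1941 and 1791 CPM, a log2 ratio of -0.29.

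Rpl37a, Rps23, Rpl39 and Rpl36a were also among the 10 members with the lowest ratios at 50 against 0 ng/ml, with log2 ratios of -0.24, -0.24, -0.24 and -0.23. Rps23 sits in the decoding centre and Rpl39 lines the peptide tunnel. All of these 4 were also lower at 5 ng/ml, by log2 ratios between -0.10 and -0.15.

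Rpl29, a large-subunit gene (ENSMUSG00000048758, chr9:106429454-106431568, plus strand), was the exception in this group. It had 318.8 CPM without ligand (313 to 324), 355.7 at 5 ng/ml (351 to 360) and 252.0 at 50 ng/ml (248 to 256), so it was higher at 5 and lower at 50 ng/ml. With every cell weighted alike, its log2 ratio was 0.053 in place of 0.16 at 5 ng/ml and -0.52 in place of -0.34 at 50 ng/ml. Between the ligand doses it was 1.41-fold lower at 50 ng/ml (1.38 to 1.44), and of the core genes it alone passed the limit of 0.322 on the log2 scale there, where 1.82% of all tested genes were lower and 0.83% higher. Outside the rule, Fau stood at 3112, 2982 and 2969.8 and the ribosome-bound scaffold Rack1 at 2707, 2589 and 2681. Ribosomal protein genes have many near-identical processed copies, and how the counting treated reads that match several copies is not given in the sources used here, so the level of a single gene such as Rpl29 is uncertain.

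Few core genes were higher with ligand, and by small amounts. Rpl41, which encodes the smallest ribosomal protein (ENSMUSG00000093674, chr10:128548114-128549305, minus strand), had 4586, 4985 and 4993 CPM, and was 1.09-fold higher at 50 than at 0 ng/ml (1.08 to 1.09). With every cell weighted alike, its log2 ratio was 0.079 in place of 0.12 at 50 ng/ml and 0.043 in place of 0.12 at 5 ng/ml. The X-linked gene Rps4x had 2549, 2582 and 2741 CPM, a log2 ratio of 0.10. Rpl21 had 2323, 2436 and 2495 and Rps2, which lies at the mRNA entry site of the small subunit, had 3973, 3983 and 4221, with log2 ratios of 0.10 and 0.087. For Rps2 and Rps4x most of the difference lay between the ligand doses.

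**Figure D2:**
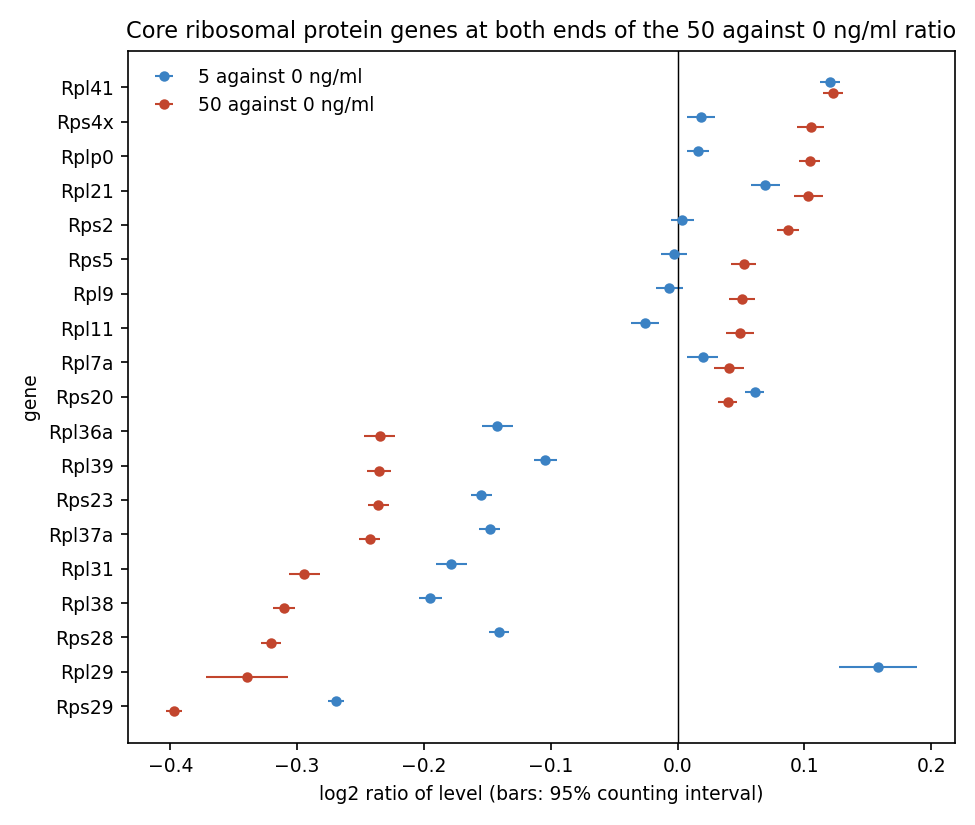
Log2 ratio of level against the library without ligand for 9 core genes among the 10 with the lowest ratio and for the 10 with the highest ratio at 50 ng/ml. Points are ratios at 5 ng/ml (blue) and 50 ng/ml (red) and bars are 95% counting intervals; Rps29 lies lowest at -0.40, and Rpl29 stands above 0 at 5 ng/ml and below 0 at 50 ng/ml.

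The abundant members gave the same picture of small differences. The 5 members with the most UMIs included, beside Rps29, Rpl27a with 6671, 6474 and 6324 CPM, Rps12 with 5771, 5776 and 5704 and Rps20 with 5571, 5811 and 5725. Rpl27a was lower at each higher dose, and Rps20 had its highest level at 5 ng/ml.

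The stalk genes did not share a direction. Rplp0, the base of the stalk (ENSMUSG00000067274, chr5:115559467-115563727, plus strand), had 4124 CPM without ligand, 4170.3 at 5 ng/ml and 4432 at 50 ng/ml. It was 1.07-fold higher at 50 than at 0 ng/ml (1.07 to 1.08), a log2 ratio of 0.10 that was 0.036 when every cell was weighted alike. Its log2 ratio of 0.016 at 5 ng/ml was -0.084 with that weighting and -0.011 when scaled to the UMIs of other genes. Its dimeric partners Rplp1 and Rplp2 were lower, with 5616, 5219.5 and 5149 and with 4278, 3821 and 3651 CPM, log2 ratios of -0.13 and -0.23 at 50 ng/ml.

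The median difference of genes linked to p53 was smaller, but not that of each gene. Of the 5 listed (Rpl5, Rpl11, Rpl23, Rpl26 and Rps27l), 4 were lower at 50 than at 0 ng/ml and 1 was higher. Their median log2 ratio was -0.033. Of core genes 77.9% were lower, with a median of -0.063, and of all tested genes 44.8%. Rps27l, at -0.12, and Rpl5, at -0.063, were no closer to the level without ligand than the core median. Rpl5 had 2055, 1928 and 1966 CPM and Rpl11 2529.8, 2485 and 2618. Rpl23 and Rpl26 lay within 0.04 on the log2 scale of their level without ligand at both doses.

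Of the 14 genes listed for a disease link or a role outside the ribosome, 13 were lower at 50 than at 0 ng/ml, where 44.8% of all tested genes and 77.9% of core genes were, with a median log2 ratio of -0.070 and no member past a log2 ratio of 0.322 either way. Rps19, the gene most often mutated in Diamond-Blackfan anaemia, had 3432, 3205 and 3129.8 CPM. Rps6, the substrate of S6 kinase, had 2113, 2020.0 and 2059, and Rpsa, whose product is also described as a laminin receptor, had 4377, 4102 and 4362. Rps3, which also acts in DNA repair, had 4474, 4260.2 and 4352, and Rpl13a, whose product can silence inflammatory mRNAs, had 5758, 5403 and 5491. Log2 ratios at 50 ng/ml were -0.092 for Rps14, -0.083 for Rps27a, -0.054 for Rpl35a, -0.071 for Rpl24 and -0.0075 for Rpl10. Rps4x was the gene of this list with a ratio above 1.

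Most paralogs were higher with ligand. Of the 6 that reached the level limit, 5 were higher and 1 lower at 50 than at 0 ng/ml, with a median log2 ratio of 0.13, while 55.2% of all tested genes and 22.1% of core genes were higher. Rpl22l1, the paralog of the RNA-binding protein gene Rpl22 (ENSMUSG00000039221, chr3:28805436-28807424, plus strand), had 416.3 CPM without ligand (410 to 423), 523.2 at 5 ng/ml (518 to 529) and 509.0 at 50 ng/ml (504 to 514). It was 1.26-fold higher at 5 ng/ml (1.23 to 1.28) and 1.22-fold higher at 50 ng/ml (1.201 to 1.245). With every cell weighted alike, its log2 ratio was 0.23 in place of 0.33 at 5 ng/ml and 0.22 in place of 0.29 at 50 ng/ml. Over the same libraries Rpl22 had 2469, 2346 and 2233 CPM. Of the pair's UMIs, Rpl22l1 therefore held 14.4% without ligand (exact binomial interval 14.2 to 14.6), 18.2% at 5 ng/ml (18.1 to 18.4) and 18.6% at 50 ng/ml (18.4 to 18.7).

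Other pairs had the same direction. Rpl36al, an autosomal relative of the X-linked Rpl36a, had 1224, 1313 and 1298 CPM and 35.6%, 39.6% and 40.9% of the pair in order of dose, with Rpl36a itself at 2210.4, 2003 and 1878. Its own log2 ratios of 0.10 and 0.085 at 5 and 50 ng/ml were 0.0075 and -0.0041 when every cell was weighted alike. Rps27l, which is also known as a p53 target, was the lower paralog, with 1298, 1254 and 1197 CPM, yet held 24.6%, 25.6% and 25.98% of its pair with Rps27. Rpl39l, best known from the testis, held 2.95%, 3.28% and 3.66% of the pair with Rpl39, and Rpl7l1, which encodes a nucleolar assembly protein, 8.08%, 8.82% and 8.88% with Rpl7. Rpl7l1 had 211.7, 223.8 and 238.6 CPM. Rpl10l, the retrogene that stands in for X-linked Rpl10 in male germ cells, held 2.001%, 2.72% and 2.39%. In each of these 6 pairs the paralog held a larger share at both ligand doses than without ligand.

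Rps27rt, an intronless copy of Rps27 (ENSMUSG00000050621, chr9:114982366-114982739, minus strand), had the largest ratio of all members that reached the level limit. It had 37.4 CPM without ligand (35.6 to 39.4), 63.6 at 5 ng/ml (61.7 to 65.5) and 46.4 at 50 ng/ml (44.9 to 48.0), so it was 1.699-fold higher at 5 than at 0 ng/ml (1.60 to 1.80). Its levels did not follow dose order. With every cell weighted alike its log2 ratio at 50 against 0 ng/ml was 0.55 in place of 0.31. Pseudogenes left out by the rule also had their highest level at 5 ng/ml, with Rpl9-ps6 at 45.3, 61.0 and 44.9 CPM and Rpl10-ps3 at 36.4, 47.0 and 40.9, as had the retrogene Rpl10l at 43.7, 55.6 and 52.2. Reads of such copies are hard to tell from those of their parent genes, so these levels are uncertain. At the limit of 0.322 on the log2 scale, 3 members, Rps27rt, Rpl10l and Rpl22l1, were higher at 5 against 0 ng/ml, where 11.2% of all tested genes were, and 0 were lower, where 10.2% were.

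**Figure D3:**
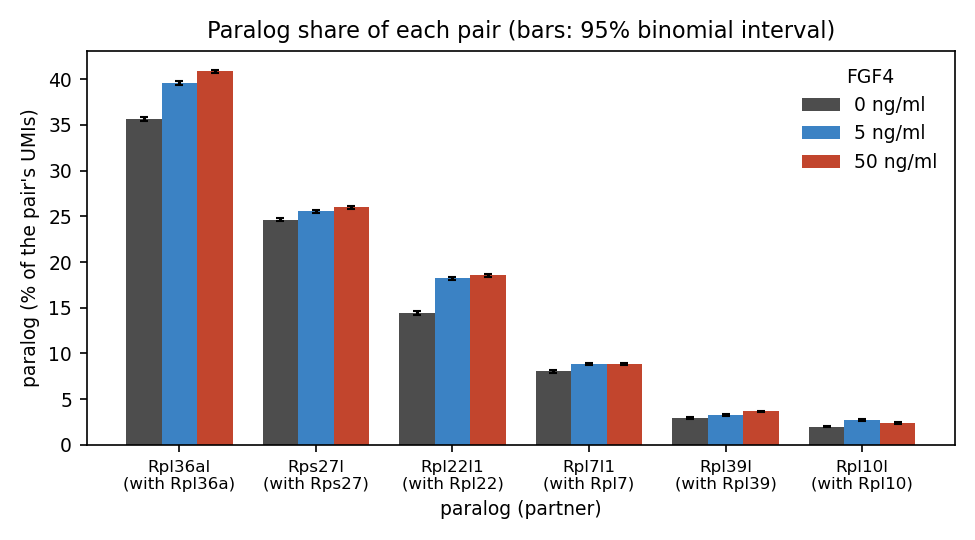
Share of each paralog in the UMIs of its pair, in percent, at 0, 5 and 50 ng/ml FGF4. Bars start at 0 and error bars are 95% exact binomial intervals; the Rpl22l1 bars stand at 14.4%, 18.2% and 18.6%, and all 6 paralogs hold a larger share at both ligand doses than without ligand.

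Coding length ordered the ratios of the core genes. The 77 coding sequences ran from 75 to 1257 nucleotides with a median of 456, and the rank correlation of coding length with the log2 ratio, a description across genes of the same 3 libraries, was 0.27 at 5 against 0 ng/ml, 0.57 at 50 against 0 ng/ml and 0.77 at 50 against 5 ng/ml. It was present in each subunit, at 0.76 for the large and 0.78 for the small subunit between the ligand doses. Among genes that are not members and are no longer than the longest core gene, the same correlations were -0.022, 0.0060 and 0.055 over 2820, 2838 and 2756 genes. Over all tested non-members they were -0.090, -0.16 and -0.25. No test of a difference between members and other genes was made.

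The median log2 ratio at 50 against 0 ng/ml was -0.24 for the 9 core genes of up to 300 nucleotides, -0.12 for the 27 of over 300 and up to 450, -0.027 for the 19 of over 450 and up to 600 and -0.0088 for the 22 longer ones. Non-members in the same length ranges stood at 0.045, 0.053, 0.089 and 0.028. At 50 against 5 ng/ml the core medians were -0.099, -0.042, 0.031 and 0.048, and those of non-members had the same order up to 600 nucleotides, at -0.033, 0.0087 and 0.039, before -0.0041 for the longer genes. Rpl39, Rps29, Rps28, Rpl38, Rps27, Rpl37a and Rpl37 were the short genes with log2 ratios between -0.40 and -0.21. Rpl41, the shortest, went against the order at 0.12, and Rps21 stood at -0.12. Without Rpl29 the correlations were 0.27, 0.59 and 0.79. With the whole transcript length in place of the coding length they were 0.24, 0.40 and 0.42.

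**Figure D4:**
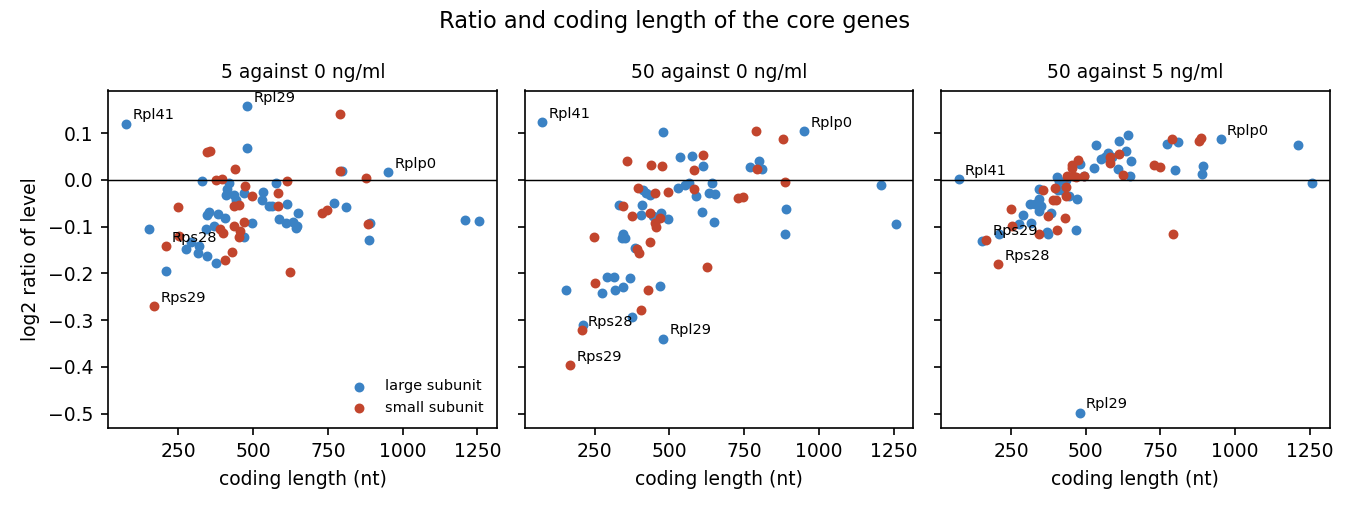
Log2 ratio of level against coding length in nucleotides for the 77 core genes, in the comparisons of 5 with 0, 50 with 0 and 50 with 5 ng/ml. Each point is a gene, blue for the large and red for the small subunit; the rank correlations are 0.27, 0.57 and 0.77, with Rpl29 below all other points in the right-hand panel and Rpl41, the shortest gene, close to 0 there.

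The same balance could be read in single cells. After thinning and within the mt and depth limits, the 9 shortest genes held a median of 16.0%, 15.4% and 14.6% of a cell's core UMIs in order of dose. Cells with a higher ribosomal protein share gave a smaller part of it to the short genes, with Spearman correlations of -0.23, -0.37 and -0.38 over 359, 706 and 798 cells. The median share of the small subunit in core UMIs was 44.3%, 44.1% and 43.9% in the same cells. Whether library preparation, sequencing or the cells themselves set the length order was not tested.

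Within each library the core genes varied together from cell to cell. The Spearman correlation of each gene with the summed UMIs of the other members, over cells thinned to 20000 non-mt UMIs, had a median over the 77 genes of 0.47, 0.57 and 0.56 in order of dose over 362, 724 and 829 cells. Within the mt and depth limits the medians were 0.50, 0.56 and 0.55, and all 77 genes were positive in each library. Of 4853, 4820 and 4762 genes that are not members and averaged at least 0.5 UMIs per cell, 1, 2 and 2 exceeded the core median. Their own medians were -0.054, -0.062 and -0.058. Many of them had far fewer UMIs than the core genes. Among the 361, 318 and 530 that averaged at least as many UMIs as the lowest core gene, 1, 2 and 2 exceeded the core median. The medians of these were -0.048, -0.041 and -0.050. Cells of a library share its depth and composition, and at a fixed number of UMIs a larger ribosomal protein share leaves fewer UMIs for other genes, so the correlations are descriptions.

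Some core genes followed the set more closely than others. Rps18 stood at 0.64, 0.71 and 0.70 in order of dose and Rps3 at 0.62, 0.71 and 0.70. Rpl41 was the lowest core gene in every library, at 0.11, 0.11 and 0.057, although it averaged 92.4 to 101 UMIs per cell after thinning. Rps26, which sits at the mRNA exit, stood at 0.28, 0.16 and 0.10, while Rpl29, with only 5.05 to 7.06 UMIs per cell, stood at 0.13, 0.20 and 0.21. Rps29, the gene with the lowest ratio, was at 0.35, 0.37 and 0.38, and Rplp0 at 0.29, 0.31 and 0.30.

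The paralogs stood apart from the core genes in cells as well. Rpl22l1 had correlations of -0.10, 0.0032 and 0.062 where Rpl22 had 0.43, 0.47 and 0.50, and Rpl36al had 0.10, 0.090 and 0.078 where Rpl36a had 0.43, 0.47 and 0.44. Their counts were lower, at 8.39 to 26.3 UMIs per cell, where counting error takes a larger part. Rps27l, with 24.2 to 25.9 UMIs per cell, reached 0.30, 0.24 and 0.25. Rps19bp1, no ribosomal protein gene, had 96.7, 100.4 and 106.7 CPM in order of dose and correlations of -0.11, -0.13 and -0.16.

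**Figure D5:**
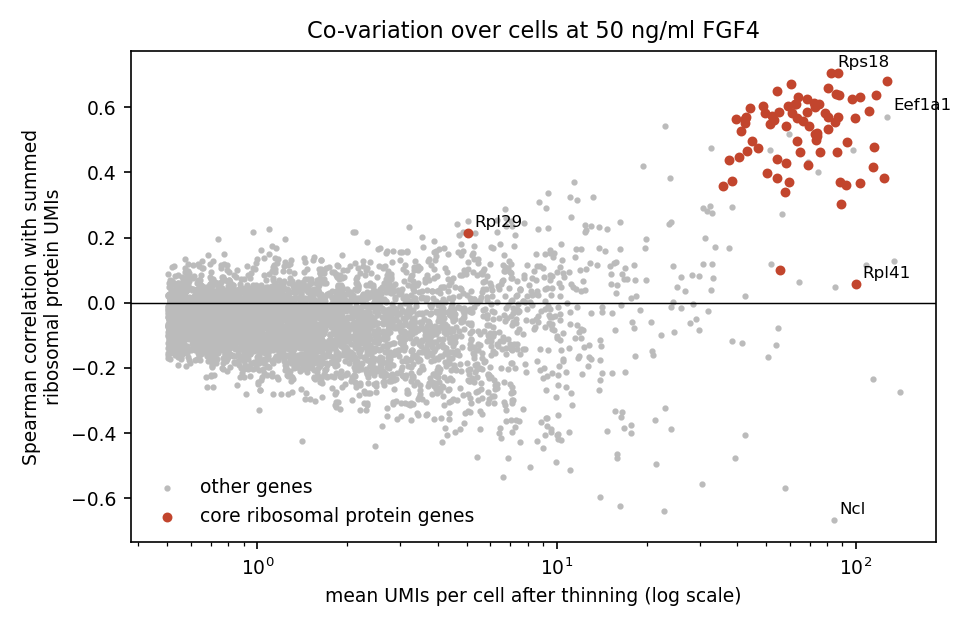
Spearman correlation over cells of each gene with the summed ribosomal protein UMIs at 50 ng/ml FGF4, against its mean UMIs per cell after thinning (log scale). Red points are the 77 core genes, grey points the other genes; the core genes have a median of 0.55, Rpl41 stands at 0.057 and Ncl at -0.67.

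Ribosome and translation genes were among the genes outside the rule that followed the set most closely. Named after their values were seen, genes near the top without ligand were Rack1 (0.48), the elongation factors Eef1b2 (0.48) and Eef1a1 (0.47), the TOP mRNA gene Tpt1 (0.47) and Fau (0.40). At 50 ng/ml these included Rack1 (0.59), Eef1a1 (0.57) and Fau (0.52). The lowest gene in every library was Ncl, which encodes nucleolin, a protein of ribosomal RNA production in the nucleolus, at -0.62, -0.58 and -0.67.

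Gene lists were also read as shares of the UMIs of non-members, so that a larger ribosomal protein share does not by itself lower them. Within the mt and depth limits, the ribosomal protein share of a cell correlated with the summed share of 21 translation factors listed for TOP mRNAs at 0.75, 0.76 and 0.76 in order of dose, and with that of a list of other cytosolic ribosome components, Fau and Rack1 among them, at 0.78, 0.81 and 0.83. Ribosome assembly factors, the nucleolar proteins that build subunits, ran opposite at -0.32, -0.38 and -0.47, and RNA polymerase I genes lay near 0 (0.012, -0.023 and 0.022). S-phase genes stood at -0.34, -0.36 and -0.25 and G2/M genes at -0.021, -0.0092 and -0.12. The correlation was -0.17, -0.12 and -0.058 with the UMIs of the cell and 0.27, 0.20 and 0.23 with its mt share, and the part of these in the result was not tested. Lists for the response to FGF and ERK and for formative pluripotency stayed between -0.17 and 0.016 in all libraries, as did naive genes between -0.17 and -0.011.

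The core genes were also divided by a pyrimidine run at the annotated start. An annotated start a few bases off hides a tract, so genes without a run may carry one too. The comparison therefore cannot show whether the tract bears on this measure. The 13 with a run, such as Rps18 and Rpl38 above, had median correlations of 0.47, 0.52 and 0.53, and the 44 with a window but no run had 0.49, 0.56 and 0.57. Rpl41 was among the latter.

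Genes that build ribosomes lay opposite to the genes that encode their proteins across doses too. Of the 55 assembly factors listed, all of them measured, 51 were higher at 50 than at 0 ng/ml (55.2% of all tested genes were), 16 by at least 0.322 on the log2 scale (14.6% of all tested genes) and 1 by at least 1.5-fold (4.75% of all tested genes). Their median log2 ratio was 0.16 at 5 ng/ml and 0.22 at 50 ng/ml, against 0.034 over all tested genes at either dose. Nop10, a component of the RNA-guided pseudouridine synthase, had the highest ratio of the list with 369 CPM without ligand and 572 at 50 ng/ml, a ratio of 1.55 (1.52 to 1.58). Ebna1bp2, a large-subunit assembly factor, had a ratio of 1.46 (1.42 to 1.50), while Noc2l and Nsa2 were lowest with ratios of 0.92 each.

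RNA polymerase I genes had a median log2 ratio of 0.16 over the 13 of 15 measured at 50 ng/ml, led by Rrn3, the initiation factor of this polymerase, at 105 against 68.4 CPM, a ratio of 1.53 (1.47 to 1.60). Translation initiation factors had a median of 0.14, with 20 of 25 above 0, where 55.2% of all tested genes were. Eif6, which keeps the large subunit from joining too early, had a ratio of 1.39 (1.36 to 1.43), and Eif2s2, a subunit of the initiator-tRNA factor, one of 0.69 (0.69 to 0.70). The 21 factors with TOP mRNAs had a median of 0.010, with 13 above 0, against a median of 0.034 and 55.2% above 0 over all tested genes. Eef1a1 had 6852 CPM without ligand and 6313 at 50 ng/ml, and Eif3k was the list's highest, with a ratio of 1.35 (1.33 to 1.38). Regulators in the MYC and mTOR list had a median of 0.10 over 13 of 18 genes. Myc, which drives transcription of ribosome genes, went from 1.76 to 20.6 CPM, a ratio of 11.7 (9.22 to 15.1), while the mTOR partner Rptor had a ratio of 0.84 (0.77 to 0.91). Without ligand Myc lay under the limit of 20 CPM, and it counted as measured only through its level at 50 ng/ml.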

How the data were processed

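The deposited tables hold UMI counts per gene and cell barcode, written by Cell Ranger 4.0.0 per the file headers and aligned to mm10 per the submitters' processing notes. The annotation release, the choice of barcodes and the handling of reads matching several genes are not given in the sources used here. Members were found by symbol, and coordinates and coding lengths come from GENCODE M21 (GRCm38, the assembly of mm10). Counts were summed per library, and ratios carry 95% conditional binomial intervals, levels exact Poisson and shares exact binomial ones, all for counting error only and the precision that library totals of 42726514 to 81409975 UMIs give. No p-value was computed, since each dose is 1 library.

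Cells were thinned to 20000 non-mt UMIs for measures per cell. Doublets were called with Scrublet in scanpy 1.11.5 (12, 7 and 26 cells), kept in the main values and left out in an alternative. The other alternatives changed cells, scaling (TMM from edgeR 4.0.16, median-of-ratios size factors), level, fold limit, thinning and members. Scripts were tested on simulated data with known answers.

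Named genes were the 10 members with the largest and the 10 with the smallest ratio at 50 against 0 ng/ml whose counting interval excluded 1, the 5 with the most UMIs, those of 5 lists of ribosomal proteins and those under the level limit; of other lists, the 2 highest and 2 lowest. A few genes named by this rule are not reported here. The members and lists were chosen with earlier results of these data known. The length comparison and its alternatives were added after seeing the data.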

Additional observations from a re-analysis of the deposited data

How the results depend on the processing

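No paired analysis was possible because each dose was 1 library. Of the alternative values of the main results, 129 stayed within their limits and 42 moved beyond them; of those of single genes, 134 stayed and 76 moved. For the log2 ratio of the ribosomal protein share at 5 against 0 ng/ml, main value -0.071, the alternatives gave -0.077 with mt UMIs in the total, -0.098 against the UMIs of all other genes, -0.13 as the mean over cells, -0.064 without cells of high mt share or outlying depth, -0.069 without doublets and -0.072 without the paralogs and Rps19bp1 (Rps27rt kept). At 50 against 0 ng/ml, main value -0.083, these were -0.095, -0.12, -0.12, -0.078 and -0.085, without a value for doublets, which stayed within its limit. At 50 against 5 ng/ml, main value -0.013, they were -0.019 with mt UMIs, -0.017 against other genes and 0.012 as the mean over cells. Without outlying cells the value was -0.014, and without doublets -0.014. The sign of this smallest difference thus turned with every cell weighted alike, outlying cells included. With outlying cells left out, the mean share over cells was 27.4% at 5 and 27.1% at 50 ng/ml. Counting intervals are narrow enough here that small shifts exceed them.

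The median log2 ratio of members at 5 against 0 ng/ml was -0.11 as the mean over cells, -0.069 without the paralogs and Rps19bp1 and -0.086 when scaled to other genes. At 50 against 0 ng/ml it was -0.091 as the mean over cells, -0.066 with mt UMIs, -0.026 with TMM, -0.024 with size factors and -0.086 when scaled to other genes. At 50 against 5 ng/ml it was 0.018 as the mean over cells, 0.025 with TMM and 0.033 with size factors, against -0.00047 in the main scaling. No scaling moved the median of all genes by 0.1. TMM and size factors raised that median by 0.027 and 0.029 at 50 against 0 ng/ml. At 50 against 5 ng/ml they raised it by 0.026 and 0.034.

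At a limit of 0.322 on the log2 scale, 3 members were higher at 5 against 0 ng/ml, 2 were lower at 50 against 0 ng/ml and 2 were lower at 50 against 5 ng/ml; at 2-fold, 0 were higher at 5 against 0 ng/ml. Thinning to 7000 UMIs gave median correlations over cells of 0.35, 0.46 and 0.43 in order of dose, and Pearson correlation gave 0.66 at 5 ng/ml. The coefficient of variation was 15.4% and 13.9% at 5 and 50 ng/ml after thinning to 7000, which keeps more shallow cells, and 10.4% and 10.0% within the mt and depth limits. The correlation of coding length with the ratio was 0.40 and 0.42 at 50 against 0 and 50 against 5 ng/ml with transcript length, and 0.18 at 5 against 0 ng/ml with the mean over cells. The causes were not tested. Of 210 alternative values of single genes, 7 had another sign, all of Rplp0, Rpl36al or Rpl41.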
